A study of Mus musculus with 8 samples.

Results

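Thrombospondins, SPARC proteins, glypicans and chordin-like 1 are secreted or released proteins through which astrocytes act on synapses. The genes described are the thrombospondins Thbs1, Thbs2, Thbs3 and Thbs4, the SPARC pair Sparc and Sparcl1, the glypicans Gpc4, Gpc5 and Gpc6, and Chrdl1. They were taken by symbol, as 10 of 24060 gene rows, and all 10 were among the 15605 genes abundant enough to be tested. They were compared between ribosome-bound astrocyte RNA and whole-cortex RNA of the same animals.

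The samples came from the cortex of 4 young adult mice, at about postnatal day 80, of both sexes without a record of which animal was which. Each animal gave an HA IP library and an input library, so there were 4 of either kind, named by the animal numbers 579, 580, 581 and 595. All animals carried Aldh1l1-creERT2 (hemi) and Ribotag (het), so the input libraries come from the same genotype as the HA IP libraries. Aldh1l1 is an astrocyte gene whose promoter drives a tamoxifen-dependent Cre recombinase, and Ribotag is a Cre-dependent hemagglutinin (HA) tag on a ribosomal protein. HA IP is RNA that came down with tagged ribosomes, and input is RNA of the cleared lysate before precipitation. The labels do not give the tamoxifen dosing, and none of the 8 libraries comes from an animal without Cre.

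In cultures of rodent neurons, thrombospondins released by immature astrocytes raise the number of excitatory synapses through the calcium channel subunit encoded by Cacna2d1. Hevin, the product of Sparcl1, bridges adhesion proteins across the synaptic cleft, and SPARC opposes it. Glypicans are heparan sulfate proteoglycans on a lipid anchor that recruit AMPA glutamate receptors after release, and chordin-like 1, a secreted binder of bone morphogenetic proteins (BMPs), promotes the switch to mature AMPA receptors containing GluA2.

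Levels are given as FPKM, fragment numbers corrected for the length of the gene and the size of the library, as deposited. The libraries held 33834388 to 53625125 fragments. Astrocyte markers were abundant in HA IP: Aldh1l1 itself averaged 406 ± 26.2 FPKM in HA IP, against 21.8 ± 0.926 FPKM in input (SD, n = 4 each), and all 13 astrocyte markers examined were higher. The summed level of 10 neuronal markers was 101 to 130 FPKM in HA IP, against 2132 to 2375 FPKM in input, and all 10 were lower. Many genes differ strongly between such samples, which weakens any scaling that takes most genes as unchanged. Fold changes were taken after such a scaling, by the trimmed mean of M-values (TMM), which centers the bulk of genes. This scaling added about 0.84 on the log2 scale to the HA IP over input differences, and less for genes near the pseudocount. The median log2 fold change of all tested genes was 0.01 after TMM scaling and -0.75 on the deposited FPKM. Fold changes below are after TMM scaling, with a pseudocount of 0.1 FPKM, and p-values are from limma with Benjamini-Hochberg adjustment over all 15605 genes. In RNA of a whole tissue, fewer cells of a type and less RNA per cell cannot be told apart.

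Of the 10 genes, 8 were higher in HA IP and 2 were lower. The 8 were Sparc, Sparcl1, Gpc4, Gpc5, Gpc6, Chrdl1, Thbs3 and Thbs4, and the 2 were Thbs1 and Thbs2. Among all genes tested 42.1% were higher and 41.2% were lower at the same threshold, an adjusted p of 0.05. The median log2 fold change of the 10 genes was 2.83. A more demanding mark, at least 3 on the log2 scale, was passed after TMM scaling by 4.16% of all genes and by 5 of these 10, namely Thbs4, Sparc, Sparcl1, Gpc5 and Chrdl1. On the deposited FPKM, Thbs4 (3.15), Sparcl1 (3.10) and Gpc5 (3.62) reached it and Sparc (2.96) and Chrdl1 (2.44) did not. The share of all genes was not computed there. With a pseudocount of 1 FPKM after TMM scaling, Thbs4 (2.64) and Chrdl1 (2.83) fell short and the others passed. By adjusted p alone, on the deposited FPKM without TMM scaling, 7 of the 10 genes were higher, against 23.3% of all genes, and the same pair, Thbs1 and Thbs2, was lower, against 61.6% of all genes. Thbs3 was the gene whose call was lost there. With the animal number as a block, the count was again 8 higher (43.0% of all genes) and 2 lower (42.3%). On the deposited FPKM the HA IP and input libraries did not overlap for 7 higher genes (22.0% of all genes) and the 2 lower ones (59.0%). After TMM scaling they did not overlap for the 8 higher genes (40.1% of all genes) and for neither lower gene (38.5%).

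**Figure D1:**
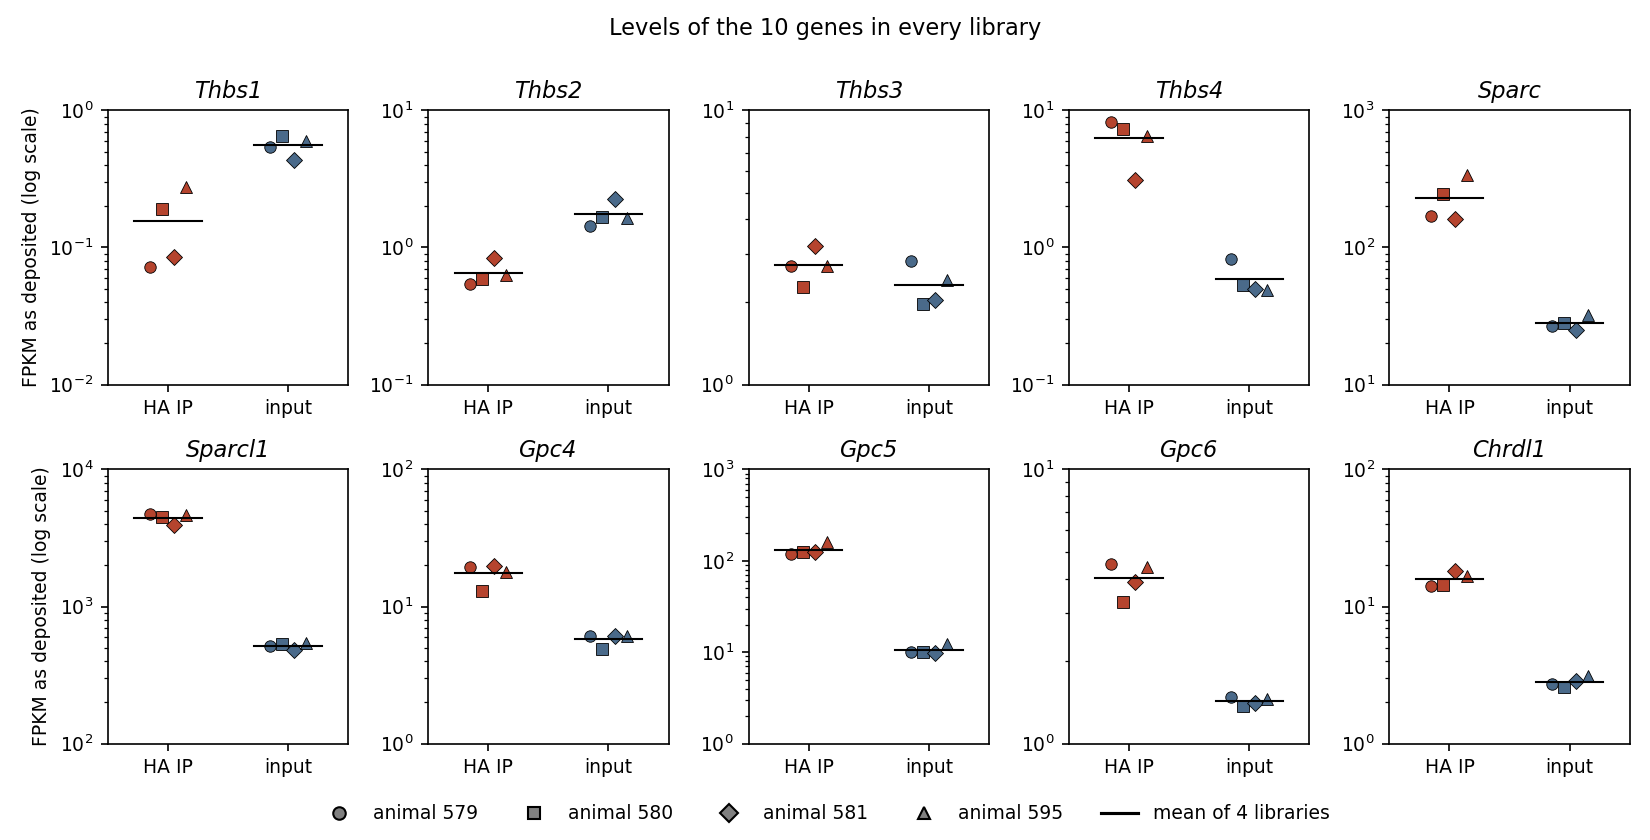
Deposited FPKM of each gene (log scale, a separate range per gene) in the 4 HA IP libraries (left) and 4 input libraries (right), with 1 symbol per animal and a line at the mean of the 4 libraries. Thbs1 and Thbs2 sit lower in HA IP, Thbs3 overlaps between the groups, and the other 7 genes are higher in every HA IP library than in any input library.

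The thrombospondins split within the family. Thbs1 and Thbs2 encode the trimeric members, which are known for restraining blood vessel growth and are the forms released by immature rodent astrocytes in culture. Thbs3 and Thbs4 encode pentameric members, Thbs3 studied mainly in the mouse skeleton and Thbs4 linked in mice to the generation of astrocytes after cortical injury. For orientation, Thbs1 lies on chr2:118111876-118127133, Thbs2 on chr17:14665500-14694262, Thbs3 on chr3:89215180-89226841 and Thbs4 on chr13:92751586-92794818 (GRCm38.p6, the RefSeq annotation of the mouse genome).

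Thbs1 had the lowest mean of the 10 genes in both kinds of library, although Thbs4 was below it in the input libraries of animals 580 and 595. It had 0.0720, 0.191, 0.0847 and 0.276 FPKM in the HA IP libraries of animals 579, 580, 581 and 595, against 0.539, 0.655, 0.431 and 0.600 FPKM in the input libraries of the same animals. Every input library was above every HA IP library. These levels rest on few reads, 19 to 54 fragments in HA IP and 92 to 186 fragments in input. For the lowest library, HA IP of animal 579, counting error alone allows 0.0433 to 0.112 FPKM (exact Poisson interval, 95%). The mean was 0.156 ± 0.0963 FPKM in HA IP, against 0.556 ± 0.0960 FPKM in input (SD, n = 4 each), and Thbs1 fell with a log2 fold change of -0.82 (SE 0.27, limma adjusted p = 0.0179). In the fit ignoring the pairing the call was lost without the HA IP library of animal 579, at a log2 fold change of -0.64 (limma adjusted p = 0.0509). It was also lost without both libraries of this animal, at -0.65 (limma adjusted p = 0.0843). Without the HA IP library of animal 581 it was kept narrowly (limma adjusted p = 0.0485). With the animal number as a block, a fit without animal 579, added after seeing the data, kept the call (limma adjusted p = 0.0239). After TMM scaling the 2 groups overlapped.

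Thbs2 was higher than Thbs1 in each library and fell as well. It had 0.538, 0.592, 0.838 and 0.631 FPKM in HA IP of animals 579, 580, 581 and 595, against 1.43, 1.66, 2.25 and 1.64 FPKM in input. Animal 581 was highest in both kinds of library, and the groups did not overlap. This was a log2 fold change of -0.53 (SE 0.17, limma adjusted p = 0.0152). Within animals the 4 log2 ratios lay between -0.56 and -0.48 (SD 0.04), against a median SD of 0.20 over all genes tested. Counting error alone is wider than this: the 126 fragments in HA IP of animal 595 allow 0.526 to 0.752 FPKM. The closeness of the 4 ratios is therefore no measure of precision. The fit ignoring the pairing lost the call without animal 580 (limma adjusted p = 0.0598) or without animal 595 (limma adjusted p = 0.0518), with a log2 fold change of -0.53 in both cases, and the groups overlapped after TMM scaling. With the animal number as a block, which removes the differences between animals, the limma adjusted p was 0.00309 for Thbs2 and 0.005 for Thbs1.

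Thbs3 depended on the scaling. It had 2.71, 2.27, 3.21 and 2.71 FPKM in HA IP of animals 579, 580, 581 and 595, against 2.83, 1.97, 2.04 and 2.41 FPKM in input. On this deposited scale it was higher in HA IP in 3 of 4 animals, the groups overlapped, and the log2 fold change of 0.23 (SE 0.15) did not pass (limma adjusted p = 0.166). Relative to the bulk of genes, as TMM scaling gives it, Thbs3 rose by 1.04 on the log2 scale (SE 0.14, limma adjusted p = 6.72e-05), and the 4 animals ranged from 0.79 to 1.41. A long noncoding RNA, LOC115489723, overlaps Thbs3 in the annotation and has no row of its own in the files, so its reads may be included.

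Thbs4 showed the opposite extreme of the family. It had 8.21, 7.29, 3.09 and 6.49 FPKM in HA IP of animals 579, 580, 581 and 595, against 0.830, 0.533, 0.494 and 0.493 FPKM in input. The lowest HA IP library was above the highest input library. Thbs4 rose with a log2 fold change of 3.91 (SE 0.30, limma adjusted p = 7.07e-07), and on the deposited scale 3.15 (SE 0.29). Animal 581 stood below the other HA IP libraries: its 441 fragments allow 2.81 to 3.39 FPKM by counting error, while the next lowest library, of animal 595, allows no less than 6.01 FPKM. The 4 within-animal log2 ratios ranged from 3.15 in animal 581 to 4.36, with an SD of 0.53. This was the widest of the 10 genes with the pseudocount, which narrows the spread of Thbs1. On the deposited FPKM without a pseudocount Thbs1 spread more, from -2.91 to -1.12, against 2.64 to 3.77 for Thbs4.

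The 3 thrombospondins below are in the RefSeq promoter table (GRCm38.p6), which holds 6 of the 10 genes, and they are shown because 1 fell, 1 changed with the scaling and 1 rose strongly. Each sequence is the 250 bases before an annotated transcription start, 5′ to 3′ on the gene's strand, with motif matches in capitals. The positions are chr17:14694263-14694512 (minus strand) for Thbs2, chr3:89214930-89215179 (plus strand) for Thbs3 and chr13:92794819-92795068 (minus strand) for Thbs4.
Thbs2: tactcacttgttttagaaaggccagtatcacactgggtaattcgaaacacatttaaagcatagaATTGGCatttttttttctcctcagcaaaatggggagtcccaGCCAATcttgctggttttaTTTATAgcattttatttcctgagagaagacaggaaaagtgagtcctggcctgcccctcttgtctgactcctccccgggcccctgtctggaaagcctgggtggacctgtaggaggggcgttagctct
Thbs3: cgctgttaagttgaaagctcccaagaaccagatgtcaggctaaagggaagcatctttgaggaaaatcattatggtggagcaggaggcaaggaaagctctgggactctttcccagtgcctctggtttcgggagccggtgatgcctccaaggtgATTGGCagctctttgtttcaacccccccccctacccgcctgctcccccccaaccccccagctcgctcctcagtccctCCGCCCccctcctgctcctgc
Thbs4: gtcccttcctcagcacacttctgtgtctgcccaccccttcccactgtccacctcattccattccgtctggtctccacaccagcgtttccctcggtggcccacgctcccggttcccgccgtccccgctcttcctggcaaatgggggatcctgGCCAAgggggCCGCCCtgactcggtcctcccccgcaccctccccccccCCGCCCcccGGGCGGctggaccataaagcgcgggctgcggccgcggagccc

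Capitals mark matches, on either strand, to the TATA box (TATAAA), the GC box (GGGCGG), the CCAAT box (CCAAT), the short NFI site (TTGGC), the AP-1 site (TGANTCA) and a SOX site (ACAATG). The CCAAT and TTGGC letters overlap wherever ATTGGC or GCCAAT is written. The Thbs4 stretch was rich in G and C, at 70.8%, with 19 CpG dinucleotides and 3 GC boxes. The Thbs3 stretch had 58.8% G and C, 6 CpG dinucleotides and 1 GC box. The Thbs2 stretch had 46.8% G and C, 3 CpG dinucleotides, no GC box and 1 match to the TATA letters. Over all 32851 promoters of the table the median was 52.4% G and C and 6 CpG dinucleotides. A GC box was found in 32.7% of them, the TATA letters in 12.4%, CCAAT in 33.8%, TTGGC in 41.5%, the AP-1 letters in 6.75% and the SOX letters in 10.7%. A match is a run of letters and not evidence of binding.

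Ratios of family members within a library do not depend on the library scaling, so they show the split without TMM. In HA IP, Thbs4 exceeded Thbs2 by 3.69-fold to 15.3-fold per unit length, while in input its level was 0.220 to 0.581 of that of Thbs2. The log2 ratio of Thbs4 to Thbs2 was 3.20 ± 0.91 in HA IP and -1.59 ± 0.59 in input (SD, n = 4 each), a difference of 4.79. For Thbs4 over Thbs3, whose lengths in the FPKM are close (3180 and 3160 bases), the ratio was 0.963 to 3.21 in HA IP and 0.205 to 0.294 in input, a difference of 3.12 in the mean log2 ratio. Thbs3 was thus the more abundant of these 2 in every input library, and Thbs4 in the HA IP libraries other than that of animal 581, where the ratio was 0.963. The differences were 5.40 for Thbs4 over Thbs1, 2.28 for Thbs3 over Thbs1 and 1.67 for Thbs3 over Thbs2. In these 5 pairs the HA IP ratios did not overlap the input ratios (two-sided exact permutation test, p = 0.0286 each, the smallest that 4 against 4 allows, and 0.0408 after Benjamini-Hochberg adjustment over the 10 pairs compared). How often ratios of other gene pairs separate in this way was not computed, here or for the glypicans below. Thbs2 over Thbs1 had a log2 ratio of 2.26 ± 1.01 in HA IP and 1.65 ± 0.49 in input, and this difference of 0.61 did not pass (exact permutation p = 0.286, adjusted 0.357). With 0.1 FPKM added to both genes the differences involving Thbs1 were smaller, 4.57 for Thbs4, 1.65 for Thbs3 and 0.13 for Thbs2. With the libraries paired by animal, a sign-flip test of 4 pairs cannot pass 0.05: it gave an exact p of 0.125 for each of the 5 pairs, its smallest, and 0.179 after adjustment.

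**Figure D2:**
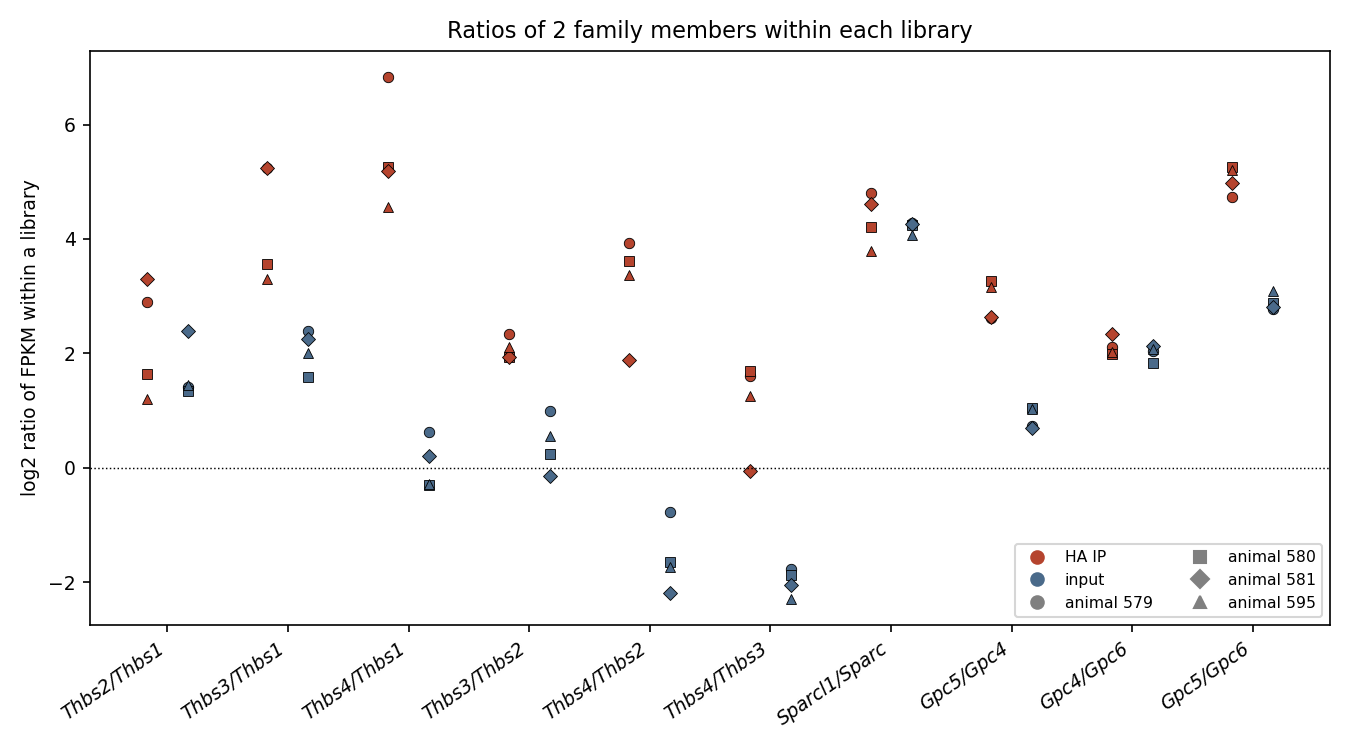
Log2 ratio of the FPKM of 2 family members within each library, HA IP libraries left of input libraries in each pair, 1 symbol per animal. The ratios of Thbs3 or Thbs4 to Thbs1 or Thbs2, of Thbs4 to Thbs3 and of Gpc5 to Gpc4 or Gpc6 are all higher in HA IP without overlap; Thbs2/Thbs1, Sparcl1/Sparc and Gpc4/Gpc6 overlap.

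The SPARC pair rose together. Sparcl1 encodes hevin, and Sparc encodes a collagen-binding matricellular protein. Sparcl1 lies on chr5:104079108-104114088 and Sparc on chr11:55394159-55420080 (GRCm38.p6).

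Sparcl1 had by far the highest level of the 10 genes. It had 4706, 4475, 3942 and 4689 FPKM in HA IP of animals 579, 580, 581 and 595, against 518, 529.7, 484 and 546 FPKM in input. The libraries within a group were close together and the groups were far apart. Its transcripts made up 1.38 ± 0.111% of all fragments in HA IP and 0.161 ± 0.00812% in input (SD, n = 4 each). By fragments it ranked number 7 of all genes in HA IP and number 22 in input. Sparcl1 rose with a log2 fold change of 3.94 (SE 0.15, limma adjusted p = 5.46e-09), and the 4 animals ranged from 3.84 to 4.06. A long noncoding RNA without a row in the files, LOC330143, overlaps the gene.

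Sparc varied more between animals. It had 169, 243, 161 and 338 FPKM in HA IP of animals 579, 580, 581 and 595, against 26.6, 28.1, 25.1 and 32.4 FPKM in input. All HA IP libraries were above all input libraries. For Sparc the log2 fold change was 3.80 (SE 0.21, limma adjusted p = 7.61e-08), with 3.49 to 4.16 over the 4 animals. The log2 ratio of Sparcl1 to Sparc was 4.35 ± 0.45 in HA IP and 4.21 ± 0.10 in input, and the difference of 0.14 did not pass (exact permutation p = 0.543, adjusted 0.543).

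Sparc and Thbs1 are also expressed outside astrocytes, by cells of vessels and meninges, and both were highest in HA IP in animal 595 and next highest in animal 580. The summed level of 10 fibroblast and meningeal markers was 60.7 and 38.4 FPKM in HA IP of these animals and 16.0 and 21.5 FPKM in HA IP of animals 579 and 581, against 76.6, 75.8, 84.8 and 65.2 FPKM in input of animals 579, 580, 581 and 595. The sum of 9 mural cell markers was 50.2 and 38.7 FPKM in HA IP of animals 595 and 580 and 19.5 and 16.7 FPKM in HA IP of animals 579 and 581, against 56.1, 49.9, 48.1 and 46.5 FPKM in input of animals 579, 580, 581 and 595. Most of the range of the mural sum in HA IP came from 1 gene, Vtn, which had 7.84 to 38.8 FPKM there. Both sums were thus highest in animal 595 and next in animal 580 in HA IP, like Sparc and Thbs1. Gpc5 also was highest in HA IP in animal 595 and next in animal 580, at 161.4 and 125.6 FPKM. Its levels in HA IP of animals 581 and 579 were close to the latter, at 123.4 and 120.1 FPKM. In input the order of the sums was another: both were lowest in animal 595, where Sparc was highest and Thbs1 second highest. Of the fibroblast and meningeal markers 1 was higher, 3 were lower and 6 did not pass; of the mural markers 1 was higher, 3 were lower and 5 did not pass. Endothelial markers summed to 2.75 to 4.10 FPKM in HA IP, against 19.9 to 29.2 FPKM in input, with 9 of 10 lower and none higher. Their sum in HA IP was 3.51, 2.75, 3.14 and 4.10 FPKM in animals 579, 580, 581 and 595. It was thus highest in animal 595 but lowest in animal 580, unlike Sparc and Thbs1. No marker of these 3 lists was at 0 in an HA IP library. The part of such cells in the levels of Sparc and Thbs1 was not tested.

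All 3 glypicans rose, Gpc5 the most. Gpc4 and Gpc6 are the glypicans first found to raise surface AMPA receptors in cultured rodent neurons, and Gpc5 has been linked in mice to synapse maturation in visual cortex. Gpc5 (chr14:115092201-116525192) and Gpc6 (chr14:116924920-117979529) are neighbors separated by 399727 bases, and Gpc4 lies on chrX:52051007-52164923 (GRCm38.p6). In the annotation the long noncoding RNAs Gm41246, Gm52112, Gm52111 and Gm52110 overlap Gpc6, and the pseudogenes Gm18367 and Gm18321 overlap Gpc5. None of these has a row of its own, so their reads may be included.

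Gpc5 had 120.1, 125.6, 123.4 and 161.4 FPKM in HA IP of animals 579, 580, 581 and 595, against 10.1, 10.1, 9.90 and 12.4 FPKM in input. Animal 595 was highest in both groups, which were widely separated. Gpc5 reached a log2 fold change of 4.46 (SE 0.11, limma adjusted p = 4.42e-10), the highest of the 10 genes and number 73 from the top among all 15605. Within animals the log2 ratio stayed between 4.43 and 4.50, an SD of 0.03. Counting error alone is wider here too: the 1033 fragments in input of animal 579 allow 9.48 to 10.7 FPKM. The closeness of these ratios is therefore no measure of precision. The 250 bases before the start of Gpc5 in the promoter table, at chr14:115091965-115092214 (plus strand, GRCm38.p6), are shown for the gene with the largest rise, with capitals as for the thrombospondins.
Gpc5: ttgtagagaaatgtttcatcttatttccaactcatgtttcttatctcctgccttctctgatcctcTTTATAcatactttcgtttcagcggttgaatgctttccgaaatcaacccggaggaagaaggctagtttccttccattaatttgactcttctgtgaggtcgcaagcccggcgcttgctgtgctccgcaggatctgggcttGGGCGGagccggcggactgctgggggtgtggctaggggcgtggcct

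This stretch had 51.2% G and C and 12 CpG dinucleotides, with 1 GC box and 1 match to the TATA letters, and none to the other letters searched. Its end overlaps the Gpc5 span given above, because the promoter table places the start a few bases inside that span.

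Gpc4 had 19.6, 13.1, 19.8 and 18.0 FPKM in HA IP of animals 579, 580, 581 and 595, against 6.09, 4.90, 6.15 and 6.13 FPKM in input. Animal 580 was lowest in both groups, and the groups did not overlap. Its log2 fold change was 2.40 (SE 0.13, limma adjusted p = 6.80e-08). Gpc6 had 4.51, 3.28, 3.90 and 4.40 FPKM in HA IP of animals 579, 580, 581 and 595, against 1.47, 1.38, 1.41 and 1.45 FPKM in input. Here too animal 580 was lowest in both groups, without overlap between them. The log2 fold change of Gpc6 was 2.22 (SE 0.12, limma adjusted p = 4.79e-08).

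Within the family, Gpc5 gained on both Gpc4 and Gpc6 in HA IP. The log2 ratio of Gpc4 to Gpc6 was 2.12 ± 0.16 in HA IP and 2.02 ± 0.13 in input (SD, n = 4 each), a difference of 0.10 that did not pass (exact permutation p = 0.486, adjusted 0.540). Gpc5 was 6.13-fold to 9.61-fold above Gpc4 in HA IP and 1.61-fold to 2.07-fold above it in input, a difference of 2.05 in the log2 ratio. Over Gpc6 the log2 ratio of Gpc5 was 5.04 ± 0.24 in HA IP and 2.89 ± 0.14 in input, a difference of 2.15. Both Gpc5 ratios passed in the unpaired test (exact permutation p = 0.0286 each, adjusted 0.0408) and not in the paired sign-flip test (exact p = 0.125 each, adjusted 0.179).

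Chrdl1 lies on chrX:143285674-143394263 (GRCm38.p6). It had 14.1, 14.3, 18.2 and 16.7 FPKM in HA IP of animals 579, 580, 581 and 595, against 2.74, 2.59, 2.86 and 3.14 FPKM in input. The lowest HA IP library was several times above the highest input library. Chrdl1 rose with a log2 fold change of 3.26 (SE 0.10, limma adjusted p = 1.27e-09), with 3.14 to 3.43 over the 4 animals.

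**Figure D3:**
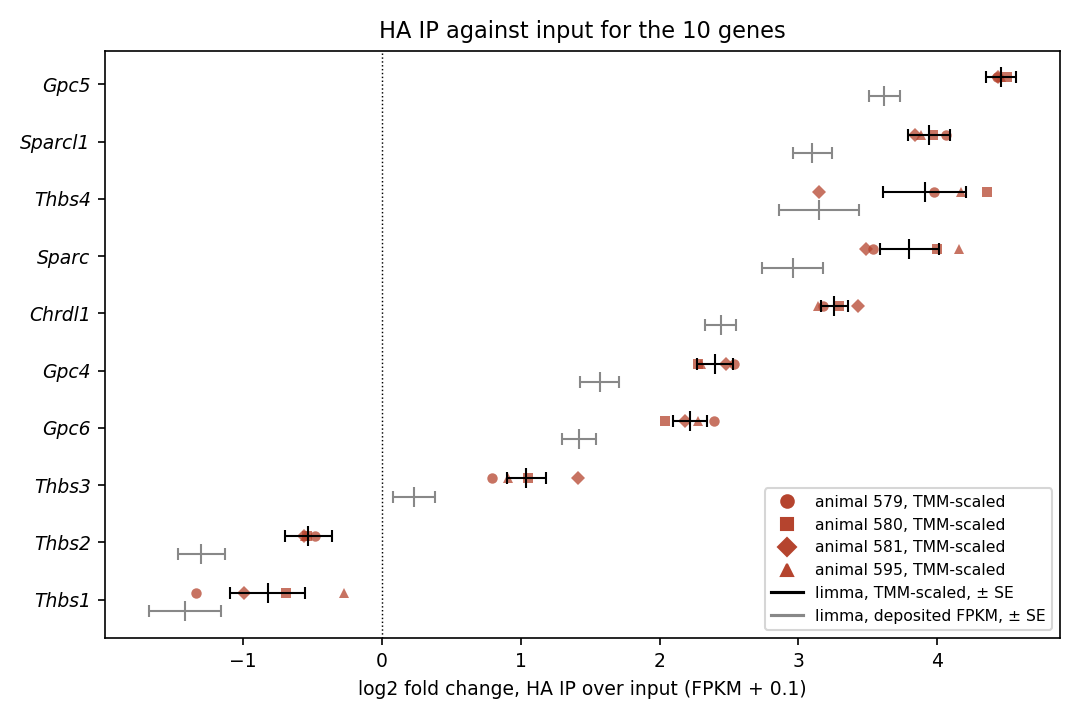
Log2 fold change of HA IP over input for the 10 genes, largest at the top, from limma after TMM scaling (black, bars ± SE) with the 4 within-animal ratios (red symbols), and on the deposited FPKM (grey, bars ± SE). The deposited values sit lower by about the 0.84 of the scaling, less for genes near the pseudocount, and leave Thbs3 at 0.23 and Thbs1 and Thbs2 at -1.42 and -1.30; the within-animal symbols of Gpc5 and Thbs2 nearly coincide and those of Thbs4 and Thbs1 spread most.

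Set in order of mean FPKM in HA IP, the genes ran Sparcl1 (4453 ± 357), Sparc (228 ± 82.3), Gpc5 (133 ± 19.3), Gpc4 (17.6 ± 3.14), Chrdl1 (15.8 ± 1.98), Thbs4 (6.27 ± 2.23), Gpc6 (4.02 ± 0.565), Thbs3 (2.72 ± 0.382), Thbs2 (0.650 ± 0.131) and Thbs1 (0.156 ± 0.0963; SD, n = 4). Neighbors whose HA IP libraries overlapped were Sparc with Gpc5, Gpc4 with Chrdl1, and Thbs4 with Gpc6. In input the order was Sparcl1 (519 ± 26.2), Sparc (28.1 ± 3.15), Gpc5 (10.6 ± 1.20), Gpc4 (5.82 ± 0.610), Chrdl1 (2.83 ± 0.231), Thbs3 (2.31 ± 0.395), Thbs2 (1.74 ± 0.351), Gpc6 (1.43 ± 0.0434), Thbs4 (0.587 ± 0.163) and Thbs1 (0.556 ± 0.0960). Chrdl1 with Thbs3, Thbs3 with Thbs2, Thbs2 with Gpc6 and Thbs4 with Thbs1 overlapped there. The top 5 genes and the last were the same in both orders, and Thbs4 held place 6 in HA IP and place 9 in input. These orders depend on the gene lengths used in the FPKM, which could not be compared with transcript lengths.

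For 3 genes, those with the most similar pattern were sought among genes within 2-fold of their mean FPKM, by the root mean square difference between the 4 within-animal log2 ratios. Sparcl1 had 10 such candidates, and the nearest were Ckb, the brain creatine kinase, at 0.10, and the metallothioneins Mt1 at 0.32 and Mt3 at 0.35. For Chrdl1, among 4878 candidates, the nearest were the tetraspanin Tspan15 at 0.07, the calcium-binding Cib1 at 0.07 and Cmtm3 at 0.08. For Gpc4, among 4695, they were the cell polarity gene Llgl1 at 0.07, the kinase Pak4 at 0.08 and the adaptor Sh3pxd2b at 0.09. With so many candidates for Chrdl1 and Gpc4, only 10 for Sparcl1, and 4 animals, these nearest genes are a description only.

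The receptors and partners of these proteins were examined as lists, beside the shares of all tested genes, which were 42.1% higher and 41.2% lower after TMM scaling and 23.3% higher and 61.6% lower on the deposited FPKM. Of 16 thrombospondin receptors and partners 7 were higher, 7 lower and 2 not past the threshold, near the 42.1% and 41.2% of all genes, with a median log2 fold change of 0.42. Without TMM scaling 6 were higher and 8 lower, beside 23.3% and 61.6%. Cacna2d1, the synaptogenic thrombospondin receptor, was the most strongly lowered, with 0.268 to 0.530 FPKM in HA IP, against 7.39 to 9.58 FPKM in input (log2 fold change -3.44, SE 0.19). Itga6, an integrin subunit, was the most strongly raised, with 5.30 to 8.02 FPKM in HA IP, against 1.72 to 2.61 FPKM in input (2.36, SE 0.16). Lrp1, an endocytic receptor that takes up thrombospondins, rose with a log2 fold change of 1.72 (SE 0.08).

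Among 14 SPARC relatives and hevin partners 5 were higher, 7 lower and 2 not past the threshold, with a median of -0.19, beside 42.1% higher and 41.2% lower among all genes. Without TMM scaling 3 were higher and 9 lower, beside 23.3% and 61.6%. The relatives ran from Smoc1, a secreted calcium-binding protein, at 2.30 (SE 0.12) to the testican Spock3 at -4.34 (SE 0.15) on the log2 fold scale. Hevin's postsynaptic partner Nlgn1, which is also in the thrombospondin list, had 2.97 to 3.93 FPKM in HA IP, against 8.78 to 10.3 FPKM in input (log2 fold change -0.61, SE 0.11). Nlgn1 thus fell, both with and without TMM scaling.

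The list of other glypicans, glypican receptors and releasing enzymes had 17 tested genes, of which 5 were higher, 10 lower and 2 not past the threshold, with a median of -0.62, beside 42.1% higher and 41.2% lower among all genes. On the deposited FPKM 1 was higher and 14 were lower, beside 23.3% and 61.6%. Gpc2, a glypican of immature neurons, rose, with 5.02 to 6.88 FPKM in HA IP, against 0.574 to 0.897 FPKM in input (log2 fold change 3.63, SE 0.15). The neuronal partners fell: Gpr158, a synaptic receptor of Gpc4, at -3.97 (SE 0.10), the pentraxin Nptx1 at -3.92 (SE 0.15) and the pentraxin receptor Nptxr at -5.36 (SE 0.15). The AMPA receptor subunits Gria1 and Gria2 fell with log2 fold changes of -0.80 (SE 0.13) and -1.89 (SE 0.23). Ptprs, a phosphatase that binds heparan sulfate, fell by a small amount, -0.19 (SE 0.06, limma adjusted p = 0.0114).

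Of the enzymes that build and edit heparan sulfate 25 were tested, of which 3 were higher, 15 lower and 7 not past the threshold, with a median of -1.16, beside 42.1% higher and 41.2% lower among all genes. Without that scaling none was higher and 23 were lower, beside 23.3% and 61.6%. They ranged from Ext2, a chain-elongating enzyme, at 0.99 (SE 0.09), to the sulfotransferase Hs6st3, with 0.0995 to 0.319 FPKM in HA IP, against 10.9 to 13.2 FPKM in input (log2 fold change -4.78, SE 0.26). Ext2 did not pass on the deposited FPKM (log2 fold change 0.16, limma adjusted p = 0.115). Among 7 other heparan sulfate proteoglycans 5 were higher, 1 was lower and 1 did not pass, beside 42.1% higher and 41.2% lower among all genes. As deposited, 2 were higher, near the 23.3% of all genes, and 1 was lower. Sdc4, a transmembrane syndecan, had 325 to 375 FPKM in HA IP, against 26.8 to 34.5 FPKM in input (log2 fold change 4.38, SE 0.09), and agrin, Agrn, fell slightly (-0.30, SE 0.09).

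Chrdl1 binds BMPs, and the list of BMP ligands, receptors, effectors and antagonists had 26 tested genes, of which 12 were higher, 11 lower and 3 not past the threshold, with a median of 0.04, near the 42.1% and 41.2% of all genes. On the deposited FPKM 5 were higher and 16 lower, near the 23.3% and 61.6% of all genes. The receptor Bmpr1b was the most strongly raised, with 4.29 to 5.53 FPKM in HA IP, against 0.808 to 1.02 FPKM in input (log2 fold change 3.09, SE 0.12). Bmp3 was the most strongly lowered at -3.98 (SE 0.22). Bmp6, another ligand, rose by 1.04 on the log2 scale with TMM scaling (SE 0.20) and had 0.21 on the deposited FPKM, where it did not pass (limma adjusted p = 0.324). Bmp4, a ligand bound by Chrdl1, did not pass (-0.47, SE 0.38, limma adjusted p = 0.264), nor did the receptor Bmpr2 (0.11, SE 0.12, limma adjusted p = 0.423), although both were lower on the deposited FPKM.

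**Figure D4:**
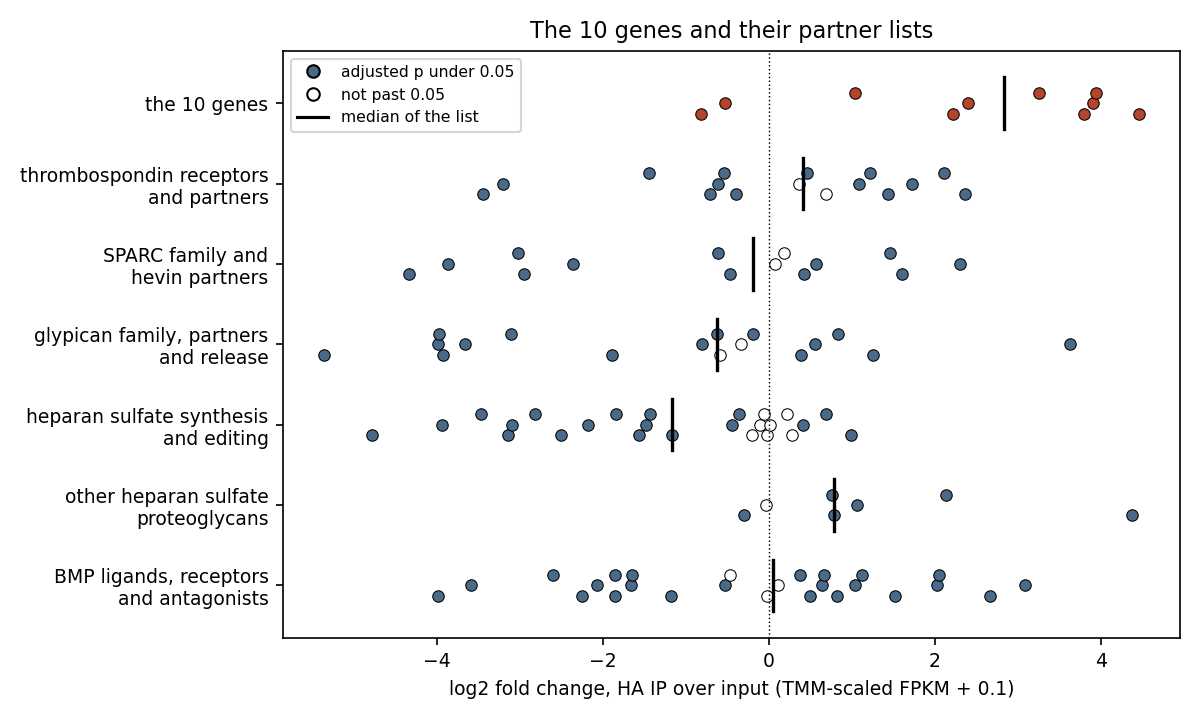
Log2 fold change of HA IP over input after TMM scaling for the 10 genes (red) and the tested genes of 6 partner lists (blue; open where the limma adjusted p is not past 0.05), with a vertical line at each list's median. The 10 genes have a median of 2.83, and the list medians lie between -1.16 and 0.79.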

How the data were processed

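Cortex RNA of 4 mice was sequenced as 4 HA IP and 4 input libraries, from 100 ng of RNA with a stranded kit after mRNA enrichment, per the labels' protocols. Per the submitters' processing notes the tools included STAR, HTSeq and bcl2fastq 2.17, with genome build mm10. For other versions, annotation and strand setting: not given in the sources used here. The deposited files name no unit. They were read as FPKM computed by the authors, since all 142235 values above 0 came within 0.001 of whole fragments for 1 length per gene. The lengths were fitted to that tolerance. They exceeded the gene's RefSeq span for 348 of 14466 genes, none of them among the 10.

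FPKM were divided by TMM factors (0.3 of M-values and 0.05 of A-values trimmed, no weights) and tested with limma 3.58.1 (R 4.3.3, trend) on log2(FPKM + 0.1), without covariates, two-sided, Benjamini-Hochberg over 15605 genes. These had at least 0.246 CPM (10 fragments in a median library) in 4 libraries and 15 fragments in all. A pseudocount makes fold changes of low genes smaller. The recovery and the fit were tested on simulated data. In the simulated fit few genes changed, equally up and down, so it does not check TMM scaling where as many genes differ as here. No count test was run on recovered fragments. Ratios of family members were compared by exact permutation tests (SciPy 1.17.1). Intervals cover counting error only. The members and lists were chosen with earlier results of these data known. Named genes were all members, each list's largest and smallest called fold change, 12 direct partners (1 of them not reported here) and the 3 nearest genes of Sparcl1, Chrdl1 and Gpc4; Mt1 and similar genes have close copies whose reads may be shared.

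Libraries with the same number come from the same animal. Their deviations from the group means correlated at 0.22 to 0.40, against at most 0.11 for other pairs, so the numbers pair the libraries. All p-values rest on these 4 animals. Those of the main limma fit and of the permutation tests ignore the pairing, and limma draws each gene's variance toward a trend over all genes. The block fit and the sign-flip test use the pairs. Alternatives tried were the deposited scale, median-of-ratios factors, other pseudocounts and filters, the animal as a block, and leaving out libraries or animals.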

Additional observations from a re-analysis of the deposited data

Results flagged for a closer look

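In 5 of 50 groups of 4 values for the 10 genes and their ratios, 1 library lay far from the other 3 (by Dixon's criterion at 95%); chance alone gives about 1 in 20. Thbs4 in input was 0.830 FPKM in animal 579. Gpc4 in input was 4.90 FPKM in animal 580, which was also lowest in HA IP. In animal 595, Gpc5 was 161.4 FPKM in HA IP, against 12.4 FPKM in input, the highest in both groups. The log2 ratio of Thbs2 to Thbs1 in input was 2.38 in animal 581. The causes were not tested.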

How the results depend on the processing

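The direction of all 10 genes held under each of the alternatives that tested them. On the deposited FPKM the genes called higher numbered 3643, against 6565 after TMM scaling, those called lower 9613 against 6427, and Thbs3 lost its call at 0.23 (limma adjusted p = 0.166). With a filter of 1 FPKM the genes lower among the 10 numbered 1, since Thbs1 was not tested there. Leaving out a library or an animal gave 6212 to 6625 genes higher (up to 6634 with the block) and 5939 to 6516 lower. Among the 10, it left 8 higher and 1 to 2 lower. The log2 fold change of Thbs1 was then -1.05 to -0.64 and that of Thbs2 -0.64 to -0.41. Thbs1 lost its call without the HA IP library or both libraries of animal 579, and Thbs2 without animal 580 or animal 595. A pseudocount of 0.01 FPKM gave -1.14 for Thbs1 and 1 FPKM gave -0.23, both past the threshold. Thbs3 stayed between 0.92 and 1.13 when a library or an animal was left out.

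With the replicate block, which pairs the libraries by animal, 6717 genes were higher and 6596 lower, no call among the 10 changed, and none was lost when an animal was left out under the block, an alternative added after seeing the data. The family ratios cannot go below 0.125 in a paired exact sign-flip test of 4 pairs, so none of the 7 calls passed there (adjusted p = 0.179), and with 0.1 FPKM added to both genes the difference for Thbs2 over Thbs1 was 0.13. Their direction held with each animal left out, including Thbs4 over Thbs3 (2.97 to 3.49). Low fragment numbers limit the precision for Thbs1.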
